A study of Mus musculus with 24 samples.

Results

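The immediate early and stress response genes described here are 37 genes chosen by name, each matched to the gene name column of a table that lists 45237 mouse genes. All 37 were found, 36 of them had enough counts to be tested among 17097 genes tested, and Hspa1b did not. Their levels and changes were measured by bulk RNA sequencing in natural killer (NK) cells sorted from mouse spleen.

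Immediate early genes are transcribed within minutes of a stimulus from factors already present in the cell, such as SRF with its ternary complex partners, CREB and NF-kB, and need no new protein synthesis. Many encode transcription factors, and many others encode inhibitors that shut the response down again, such as phosphatases of MAP kinases, proteins that destroy short-lived mRNA, and inhibitors of NF-kB. In lymphocytes including NK cells these genes respond to receptor engagement and cytokines, and they are also known to respond to handling such as tissue dissociation and cell sorting.

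The members fall into 10 roles. AP-1 and related basic leucine zipper subunits are Fos, Fosb, Fosl2, Jun, Junb, Jund, Atf3 and Maff. Zinc finger transcription factors are Egr1, Egr2 and Egr3 of the EGR family and Klf2, Klf4 and Klf6 of the KLF family, and Nr4a1, Nr4a2 and Nr4a3 are orphan nuclear receptors. Ier2, Ier3, Ier5 and Csrnp1 are further nuclear or signalling products of the early response. Dusp1, Dusp2 and Dusp5 encode phosphatases of MAP kinases. Zfp36 and Zfp36l1 encode proteins that promote mRNA decay, and Btg1 and Btg2 encode antiproliferative proteins that bind deadenylases. Ppp1r15a, Gadd45b, Hspa1a and Hspa1b belong to stress and translation control, Nfkbia, Nfkbiz, Nfkbid and Tnfaip3 to NF-kB feedback, and Cd69 encodes a surface protein of recently activated lymphocytes.

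The study followed spleen NK cells of wild-type C57BL/6J mice after tumor cells were injected into a vein, and concerns the loss of NK cell function in mice with a tumor that does or does not activate these cells. All 24 libraries come from sorted NK cells in 7 groups. Control mice received no tumor (4 libraries). RMA is a T lymphoma line, and RMA-KR is its derivative without B2m, and so without MHC class I at its surface, that also carries the NKG2D ligand Rae1-β. Both lines were transduced to express the fluorescent protein ZsGreen. Early libraries were taken on day 2 (3 of RMA and 3 of RMA-KR). Intermediate libraries date from day 4 for RMA (3) and day 7 for RMA-KR (5). Late libraries date from day 9 for RMA (3) and day 14 for RMA-KR (3), so that the tumor and the day cannot be told apart at the intermediate and late times. RMA-KR was cloned by limiting dilution and stands for 1 clone, and the age of the mice is not in the labels; by the methods of the study they were young females unless stated otherwise. The sort took live cells that stained for NKp46 or NK1.1 and left out, among others, cells with CD3, CD5 or T cell receptor. The labels do not say whether each library is 1 animal or a pool, while the study counts the late samples as mice. The p-values measure the spread between these libraries.

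Control 4 and RMA-KR intermediate 3, 4 and 5 stand apart from the other 20 libraries by low Fos and Jun, and were set apart for that reason. Total counts ran from 5138651 to 14863500 over the 24 libraries with a median of 10489204. In control 4 the total was 10562991, and in RMA-KR intermediate 3, 4 and 5 it was 8303060, 8131589 and 9626213, inside the range of the other 20. Genes with at least 1 count numbered 27820 in control 4 and 24676, 26285 and 24621 in the RMA-KR intermediate libraries, against 15263 to 24234 in the other 20, so the ranges did not meet. The 37 members together took 0.466% of the counts in control 4 and 0.407%, 0.456% and 0.438% in RMA-KR intermediate 3, 4 and 5, against 0.953% to 2.19% elsewhere. Ribosomal protein genes took 1.12%, 1.16% and 1.22% of counts in RMA-KR intermediate 3, 4 and 5, above all of the other 20 (0.460% to 0.998%), and 0.898% in control 4, inside their range. Since the 4 libraries were picked on Fos and Jun, no test of the 4 against the 20 is given, and all values for them are descriptions. The part of gene detection, ribosomal share or handling in these low values was not tested.

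All 10 NK cell markers were above 3 counts in all 24 libraries, with Gzma the most abundant at a median of 9942 CPM (counts scaled to library size, normalized by the trimmed mean of M values, TMM). Their summed CPM was 22667, 29749.5, 32429 and 23099 in control 1 to 4 and 31444, 33171, 20359.5, 20581 and 19223 in RMA-KR intermediate 1 to 5. In early libraries 1 to 3 the NK sum was 26632, 26377 and 24260 with RMA and 25481, 26524 and 27696 with RMA-KR. The defining marker Ncr1, which encodes NKp46, had no library at 0. For the remaining groups the NK sum was 29602, 25120.2 and 29059 in RMA intermediate, 35013, 34850 and 29764 in RMA late and 25928, 29059.7 and 22906 in RMA-KR late 1 to 3. RMA-KR intermediate 3, 4 and 5 lay below all of the other 20 libraries in this sum. Control 4 lay inside the range of the other 20 near its lower end. Gzma is the largest part of this sum, and it alone of the 10 markers had all 4 libraries below the other 20. Prf1 had 1 of the 4 below them and Itga2 had 2. Ncr1 was at 2930.5 to 3346 CPM in the 4 libraries and 1625 to 4040 CPM in the other 20. Il2rb was at 3123 to 3710.5 CPM in the 4 and 1767 to 3524 CPM in the other 20. Gzma was at 4446 to 6066 CPM in the 4 libraries and 7779 to 16442 CPM in the other 20, with no overlap, and its part in the results was not tested.

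All 10 B cell markers had a count in some library and 1 (Ighm, the most abundant) was above 3 counts in all 24. The B cell sum was 432 CPM in control 4 and 406 to 592 CPM in RMA-KR intermediate 3 to 5, against 226 to 595 CPM with a median of 337 in the other 20. Within this list Cd74 was at 19.6 CPM in control 4 and 48.5, 78.7 and 66.6 CPM in RMA-KR intermediate 3, 4 and 5, above all of the other 20, whose highest was 12.1 CPM. H2-Aa was at 13.3, 19.2, 40.4 and 14.1 CPM in the same 4 libraries, and of the other 20 only RMA early 3 (20.1 CPM) was above the lowest of them. Both encode parts of the MHC class II pathway, which other antigen-presenting cells use too. Ms4a1 was at 0 in 17 libraries.

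Of 11 T cell markers, 5 were above 3 counts in every library and Trbc1 was the most abundant. The T cell sum was 508 to 564 CPM in the 4 libraries and 362 to 689 CPM with a median of 519 in the other 20. This sum is mostly Trbc1, and single markers differed from it. Cd3d was at 14.7 CPM in control 4, inside the range of the other 20 (0.966 to 17.2 CPM), and at 21.0, 30.6 and 29.6 CPM in RMA-KR intermediate 3, 4 and 5, above that range. Cd4 was at 0 in 17 libraries, Cd8a in 18 and Cd3e in 12. Among 10 macrophage and monocyte markers 1 (Ccr2, the most abundant, which some NK cells also express) was above 3 counts in all 24, and the sum was 1039 to 1430.1 CPM in the 4 libraries and 767 to 1895 CPM with a median of 1126 in the other 20. C1qa was at 0 in 22 libraries and Cd14 in 20. Blood cells other than lymphocytes and monocytes were nearly absent by their markers. None of 10 granulocyte, 9 red blood cell or 5 platelet markers was above 3 counts in all 24. Their sums reached at most 1.95, 1.79 and 13.9 CPM in the 4 libraries and 17.2, 11.3 and 30.4 CPM in the other 20. Ngp, Alas2 and Itga2b were their most abundant genes by median, or by mean for Ngp since all granulocyte medians were 0, with Ngp at 0 in 18 libraries, Alas2 in 9 and Itga2b in 5. Gzma (lower), Cd74 (higher) and, in 3 of the 4 libraries, Cd3d (higher) were thus the markers that set at least 3 of the 4 libraries apart from the other 20, of 65 markers in all. No marker was at 0 in all 24. By group, the platelet sum was 7.87 to 30.4 CPM in RMA early and 15.4 to 20.7 CPM in RMA-KR early. In control it was 1.90 to 4.34 CPM. The macrophage and monocyte sum was 1542 to 1895 CPM in RMA-KR late and 946 to 1164 CPM in control. In RMA late it was 1275 to 1620 CPM. The B cell sum was 417 to 595 CPM in RMA-KR late and 241 to 336 CPM in control 1 to 3. Control 4 was at 432 CPM. The part of other cells in the results was not tested. In these bulk samples fewer cells of a type and less RNA per cell cannot be told apart.

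**Figure D1:**
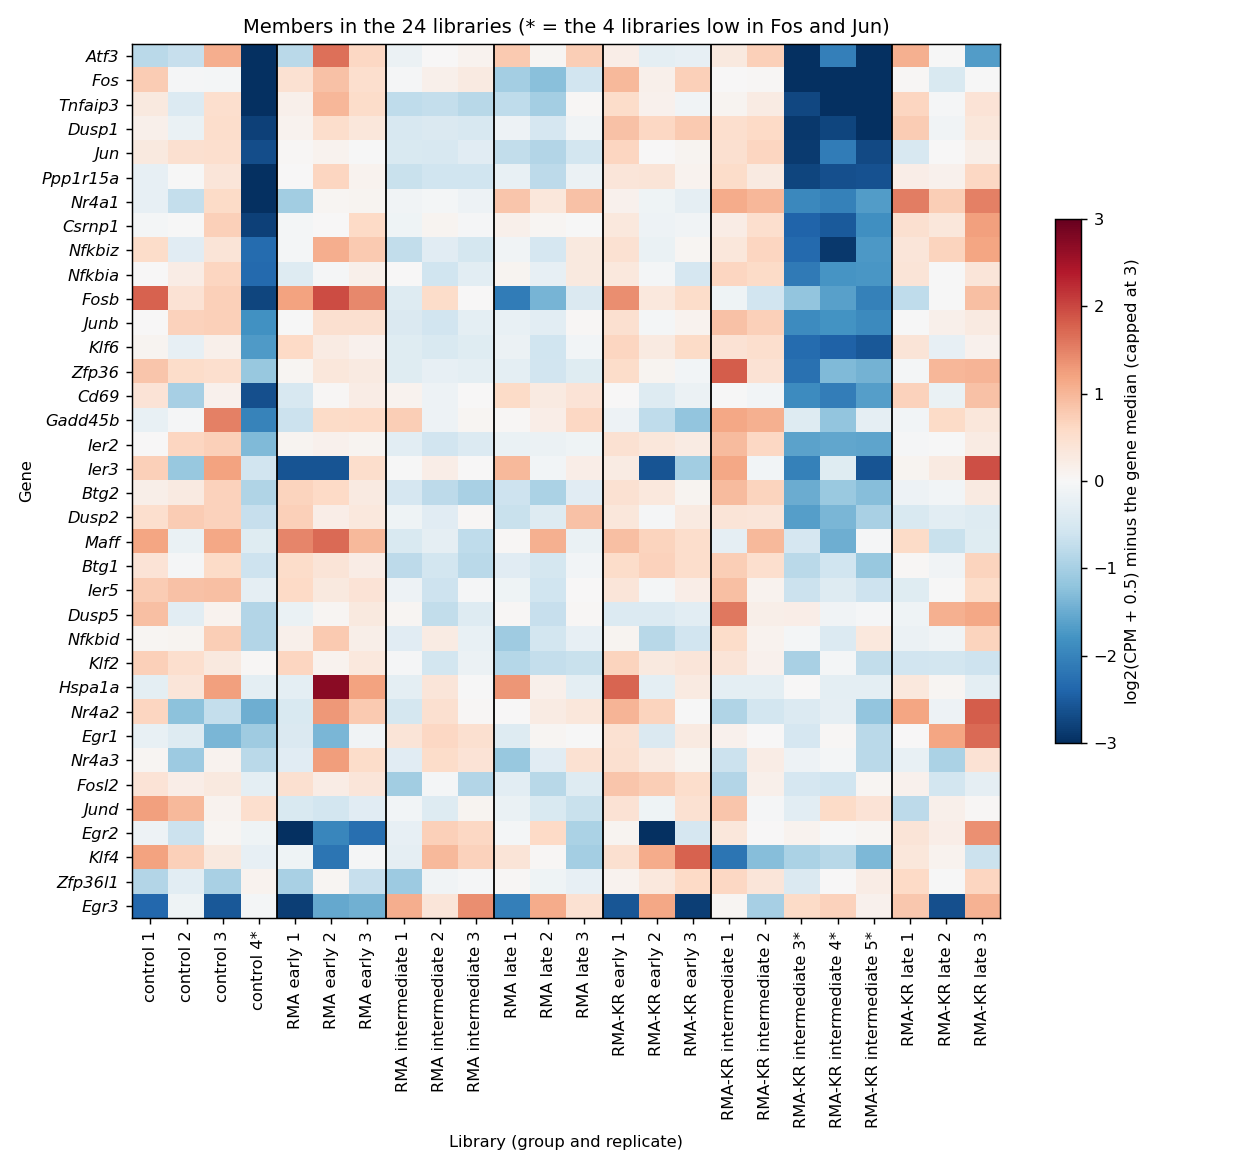
The 36 tested members by library, as log2(CPM + 0.5) minus the median of that gene over 24 libraries, with colour capped at 3 either way. The 4 libraries marked with a star are low for most members, and Egr2, Egr3, Zfp36l1 and Jund are among those that do not follow them.

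Fos (ENSMUSG00000021250, chr12:85473890-85477273, build GRCm38) encodes the AP-1 subunit that pairs with Jun proteins. Its CPM was 1650.3, 947, 924 and 83.9 in control 1 to 4, 1319, 1771 and 1369 in RMA early 1 to 3 and 1910.1, 1068 and 1575 in RMA-KR early 1 to 3. At the intermediate time Fos stood at 939.7, 1066 and 1163 CPM with RMA and 975, 986, 88.3, 67.3 and 75.8 CPM in RMA-KR intermediate 1 to 5. Late Fos values were 476, 403 and 649 CPM with RMA and 996, 699.6 and 957 CPM with RMA-KR. The 4 libraries low in Fos do not overlap any other library, and among the other 20 the lowest 3 are those of RMA late.

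Jun (ENSMUSG00000052684, chr4:95049034-95052222) encodes the other partner of AP-1. Its CPM was 815, 927, 939 and 105 in control 1 to 4 and 926, 1042, 91.2, 155 and 101 in RMA-KR intermediate 1 to 5. Early Jun values were 678, 721 and 665 CPM with RMA and 1045, 667 and 701 CPM with RMA-KR. RMA libraries had 483, 475 and 527 CPM at the intermediate and 396, 363 and 453 CPM at the late time, and RMA-KR late libraries had 481, 666 and 750.5 CPM. Control 4 and RMA-KR intermediate 3 to 5 were again below all others. RMA intermediate and RMA late lay below every other library of the 20 except RMA-KR late 1, which lay inside the RMA intermediate range.

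Between genes, levels are compared as median CPM per kilobase of median transcript length over 24 libraries. Junb was highest at 1606 CPM per kb, followed by Fos at 1186, Dusp2 at 959.6, Klf6 at 905, Nfkbia at 845 and Tnfaip3 at 762. Egr1 stood at 9.40 CPM per kb and Nr4a3 at 5.71. At the lower end, Ier3 had 2.21, Klf4 2.08, Jund 1.87, Egr3 1.12, Maff 0.800 and Hspa1a 0.0386 CPM per kb. Over the 20 libraries the lower end is ordered otherwise, with Klf4 at 2.49, Ier3 at 2.48, Jund at 1.79, Maff at 1.30 and Egr3 at 0.736 CPM per kb. By this measure the AP-1 subunits hold both the highest member, Junb, and some of the lowest, Jund and Maff. The order depends on the transcript lengths used. Without division by length Tnfaip3 was highest, at a median of 1943 CPM, and Junb had 1848 CPM. Hspa1a had at most 3 counts in 19 of 24 libraries and Hspa1b at most 3 in 21, with 0 in 20 and a highest count of 13, and reads of these near-identical copies cannot be placed with certainty. A count of 0 allows up to 3 counts, which is the floor used here. Since the strand setting of the counting is not given, reads of overlapping or antisense transcripts cannot be separated.

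Across the tested members, control 4 and RMA-KR intermediate 3, 4 and 5 were the 4 lowest of 24 libraries in 16 of 36 (44.4%), against 86 of 17097 genes (0.503%). They were the 4 highest in 0 of 36 members and in 81 genes (0.474%). Fos and Jun, on which the libraries were chosen, are 2 of the 16. Within control, the log2 CPM of control 4 minus the mean of control 1 to 3 had a median of -1.32 over members and 0.11 over all genes tested. Within RMA-KR intermediate, the mean of libraries 3 to 5 minus the mean of 1 and 2 had a median of -1.72 over members and 0.23 over all genes. Both differences were below -1 in 21 members (58.3%) and 286 genes (1.67%). Fos and Jun are 2 of the 21 and are also in the medians over members, which are not given without them. Both differences were above 1 in 1 member, Egr3 (2.78%), and 1865 genes (10.9%). By this measure genes high in the 4 libraries were more numerous than genes low in them, and most members lay on the low side.

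By role, the 4 libraries were lowest for 4 of 8 AP-1 subunits (Fos, Jun, Junb and Atf3), 3 of 4 NF-kB feedback genes (Nfkbia, Nfkbiz and Tnfaip3), 2 of 3 phosphatases (Dusp1 and Dusp2) and 2 of 4 IER and CSRNP genes (Ier2 and Csrnp1). They were lowest for 1 of 3 NR4A receptors (Nr4a1), 1 of 3 KLF factors (Klf6), 1 of 4 mRNA decay and antiproliferative genes (Zfp36), 1 of 3 tested stress and translation genes (Ppp1r15a) and for Cd69. None of the 3 EGR factors had the 4 libraries lowest. Averaging the 2 within-group differences, the median over a role was -2.62 log2 units for NF-kB feedback, -2.51 for AP-1 subunits, -2.10 for stress and translation, -1.98 for IER and CSRNP, -1.53 for phosphatases, -1.45 for mRNA decay and antiproliferative genes, -0.66 for KLF factors, -0.47 for NR4A receptors and 0.00 for EGR factors. The AP-1 median includes Fos and Jun, on which the libraries were chosen, and without them the median over the other 6 AP-1 subunits was -1.86.

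The 6 members furthest down in the 4 libraries are given by their differences in log2 CPM. Atf3, a stress-induced AP-1 relative, differed by -5.85 within control and -3.95 within RMA-KR intermediate. For Fos the differences were -3.75 within control and -3.67 within RMA-KR intermediate. Tnfaip3, which encodes the ubiquitin editor A20, gave -3.28 within control and -3.30 within RMA-KR intermediate. All 4 libraries lay below the other 20 for these genes, as they did for the next. Dusp1 differed by -2.96 within control and -3.44 within RMA-KR intermediate, and Jun by -3.08 within control and -3.12 within RMA-KR intermediate. Ppp1r15a, whose product GADD34 restores translation under stress, had -3.05 within control and -3.09 within RMA-KR intermediate. Chosen after its values were seen, Egr3 had 2.15 within control and 1.03 within RMA-KR intermediate, but control 1 and 3 had 1 count each, under the floor, and control 2 (28 counts, 2.70 CPM) was close to control 4 (32 counts, 2.86 CPM).

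The 6 members with the mean of the 2 differences nearest 0 came from several roles, and such a mean can also come from differences of opposite sign. Egr2 differed by 0.12 within control and -0.13 within RMA-KR intermediate. Klf4 gave -1.12 within control and 1.18 within RMA-KR intermediate, and Zfp36l1 gave 0.86 within control and -0.56 within RMA-KR intermediate, so that for each the 2 groups went in opposite directions and the mean hides their size. These are low or moderate in level, and Klf4 had 0 counts in 2 libraries. Jund differed by -0.27 within control and -0.20 within RMA-KR intermediate. Fosl2 gave -0.61 within control and 0.01 within RMA-KR intermediate, and Nr4a3 gave -0.52 within control and -0.13 within RMA-KR intermediate. With CPM on library totals the RMA-KR intermediate difference of Egr2 was 0.004 in place of -0.13, and 15 members in place of 16 had the 4 libraries lowest.

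**Figure D2:**
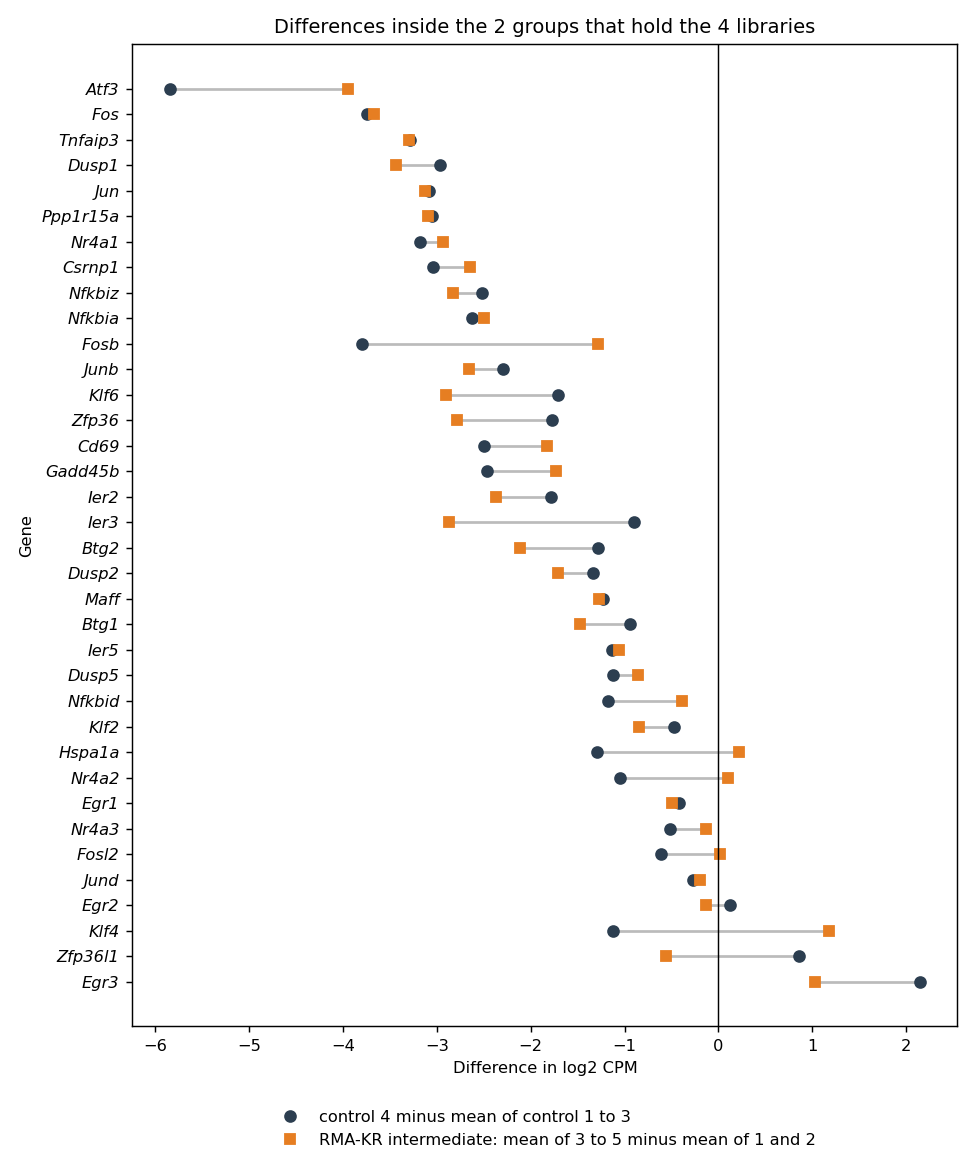
Differences in log2 CPM between the 4 libraries and the others of their own group, per member, inside control (circles) and inside RMA-KR intermediate (squares). Both points lie below -1 for 21 of 36 members, among them Fos and Jun, on which the libraries were chosen. By the mean of the 2 points the largest drops are those of Atf3, Fos and Tnfaip3.

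Because most members stood low together in the 4 libraries, their promoter letters are shown for the 4 with the largest mean difference and the 2 with the mean nearest 0, of which Klf4 owes it to differences of opposite sign. The windows hold 300 bases from RefSeq (build GRCm38.p6), from 250 before to 50 after the gene start, written 5′ to 3′ along the strand of the gene. Capitals mark letters that match 1 of 5 motifs on either strand: the CRE (TGACGTCA), the AP-1 site (TGANTCA), an NF-kB site (GGG and CC with any 5 letters between them), the EGR site (GCGTGGGCG) or the CArG box of SRF. The window of Atf3 is chr1:191183284-191183583, minus strand, that of Fos chr12:85473640-85473939, plus strand, and that of Tnfaip3 chr10:19015361-19015660, minus strand. For Dusp1 it is chr17:26508423-26508722, minus strand, for Egr2 chr10:67535249-67535548, plus strand, and for Klf4 chr4:55532426-55532725, minus strand. Where RefSeq lists several starts, as for Tnfaip3 and Egr2, the window listed first is shown.
Atf3: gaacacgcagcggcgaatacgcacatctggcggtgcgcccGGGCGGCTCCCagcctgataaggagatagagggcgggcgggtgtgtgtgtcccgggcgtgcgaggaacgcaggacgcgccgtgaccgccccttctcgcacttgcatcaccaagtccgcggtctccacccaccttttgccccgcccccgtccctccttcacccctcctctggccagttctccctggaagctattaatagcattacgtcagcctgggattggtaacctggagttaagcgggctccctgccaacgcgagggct
Fos: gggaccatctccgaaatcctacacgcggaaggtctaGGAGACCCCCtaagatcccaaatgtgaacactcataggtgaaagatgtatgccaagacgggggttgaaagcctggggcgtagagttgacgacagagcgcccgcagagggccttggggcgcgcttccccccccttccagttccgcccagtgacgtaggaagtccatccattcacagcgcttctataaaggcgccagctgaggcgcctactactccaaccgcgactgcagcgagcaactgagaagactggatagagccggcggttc
Tnfaip3: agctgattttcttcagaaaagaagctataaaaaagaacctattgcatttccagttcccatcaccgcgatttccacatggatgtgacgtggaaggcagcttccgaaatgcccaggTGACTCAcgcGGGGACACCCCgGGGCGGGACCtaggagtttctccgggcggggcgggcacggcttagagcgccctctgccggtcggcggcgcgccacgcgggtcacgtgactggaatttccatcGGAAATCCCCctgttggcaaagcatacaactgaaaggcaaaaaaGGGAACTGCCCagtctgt
Dusp1: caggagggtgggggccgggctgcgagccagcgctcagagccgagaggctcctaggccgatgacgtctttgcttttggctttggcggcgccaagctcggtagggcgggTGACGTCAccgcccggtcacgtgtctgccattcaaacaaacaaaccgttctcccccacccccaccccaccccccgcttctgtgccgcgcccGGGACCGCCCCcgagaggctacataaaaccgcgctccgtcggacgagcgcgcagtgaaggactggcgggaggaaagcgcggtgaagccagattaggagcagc
Egr2: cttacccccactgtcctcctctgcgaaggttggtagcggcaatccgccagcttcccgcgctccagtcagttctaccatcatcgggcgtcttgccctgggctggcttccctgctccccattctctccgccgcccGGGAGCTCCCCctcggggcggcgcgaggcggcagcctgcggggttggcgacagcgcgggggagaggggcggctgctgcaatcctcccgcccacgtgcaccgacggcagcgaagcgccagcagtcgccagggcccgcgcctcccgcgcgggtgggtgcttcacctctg
Klf4: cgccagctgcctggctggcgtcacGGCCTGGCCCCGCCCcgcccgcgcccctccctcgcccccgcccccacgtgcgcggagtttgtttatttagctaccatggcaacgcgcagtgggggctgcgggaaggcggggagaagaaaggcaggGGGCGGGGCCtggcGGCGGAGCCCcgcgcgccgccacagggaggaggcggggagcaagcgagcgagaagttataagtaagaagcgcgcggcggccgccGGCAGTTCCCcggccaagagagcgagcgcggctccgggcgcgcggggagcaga

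In the windows shown, Dusp1 had the CRE letters 143 bases before the start, and Tnfaip3 had AP-1 letters 136 bases before it with 4 NF-kB matches before the start and 2 after it. Fos had 1 NF-kB match, Atf3, Dusp1 and Egr2 had 2 overlapping ones each, and Klf4 had 5. Of the 37 members 32 had a window (Egr1, Egr3, Ier2, Nfkbiz and Cd69 have no entry). The CRE was found in 5 of 32 members (15.6%) and in 2.03% of 27025 genes. AP-1 letters stood in 3 members (9.38%) and 8.97% of genes, and NF-kB letters in 26 (81.2%) and 53.5%. The CArG box was in 3 members (9.38%) and 1.81% of genes, and the EGR site in 1 (3.12%) and 0.707%. Among members with the 4 libraries lowest, 11 of 13 (84.6%) held NF-kB letters and 2 of 13 (15.4%) the CRE, and among the other tested members 14 of 18 (77.8%) and 3 of 18 (16.7%) did. AP-1 letters were in 2 of 13 (15.4%) and 1 of 18 (5.56%), the CArG box in 1 of 13 (7.69%) and 2 of 18 (11.1%), and the EGR site in 0 of 13 and 1 of 18 (5.56%). These shares rest on few genes and were not tested. The 13 include Fos and Jun, on which the libraries were chosen, and both hold NF-kB letters. A match describes letters in a window and says nothing of binding, and the longer NF-kB pattern with its 5 free positions is common in all genes.

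Groups were compared with edgeR over all genes tested, and a gene is called where the adjusted p is under 0.05 and the absolute log2 fold change above 1. Each comparison is given with all 24 libraries and again with the 20 that remain without the 4 low in Fos and Jun. Shares of all genes beside DESeq2 counts are over 44723 genes, without the filter on low counts. Those of edgeR with 24 libraries are over 17097, so the shares of the 2 methods are not alike. Leaving out libraries because Fos and Jun are low there also narrows the spread of the members: their median biological coefficient of variation was 0.528 with 24 libraries and 0.270 with 20, while over all genes tested it was 0.705 and 0.797. Calls with 20 libraries are therefore not independent of how the libraries were chosen, also in comparisons whose groups hold none of the 4. The 6 comparisons against control share the same 4 control libraries. Over the 12 comparisons, 3 of 36 members (8.33%) were called at least once with 24 libraries (Klf2, Egr1 and Fosb), beside 4.02% of all genes tested, and 13 (36.1%) with 20, beside 2.95%. Those 13 include Fos and Jun, on which the libraries were left out, and without these 2 genes it was 11 of 34 (32.4%). In either fit 14 members (38.9%) were called, beside 4.14% of all genes, and 22 of the 36 tested were called in neither.

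**Figure D3:**
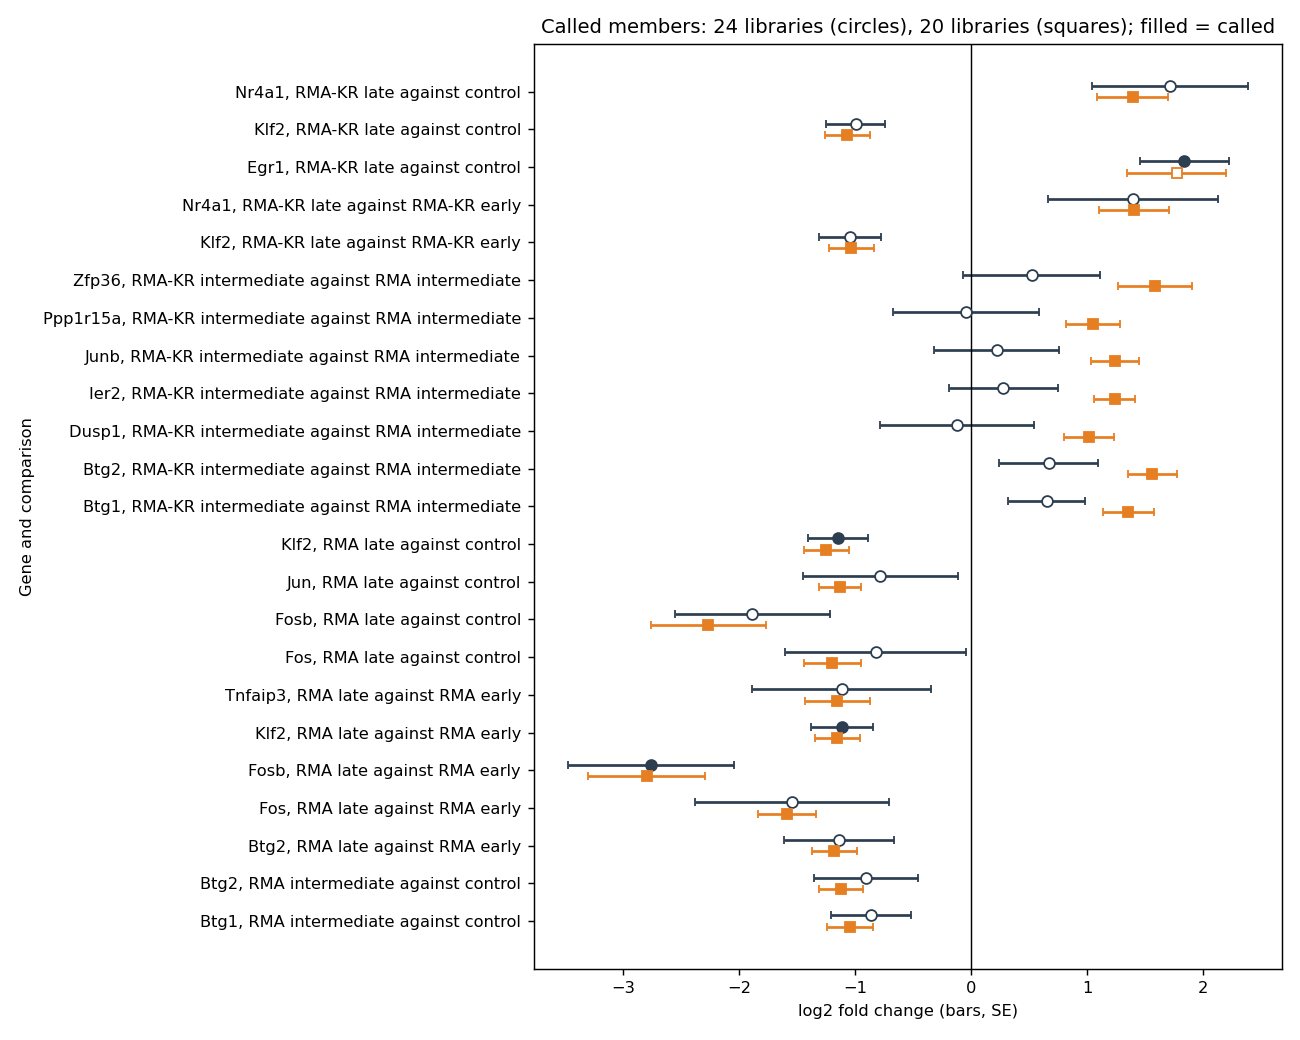
Log2 fold changes with SE of each member and comparison called in either fit, with 24 libraries as circles and 20 as squares, filled where called. The squares of Fos and Jun are descriptions, since these genes chose the libraries left out. Most filled points are squares, and for Dusp1 and Ppp1r15a at the intermediate time the circle and the square lie on opposite sides of 0.

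The early comparisons ask what the members did on day 2. For RMA early against control, edgeR called 0 of 36 members with 24 libraries, where it called 0% of all genes tested, and 0 of 36 with 20 libraries, where it called 0%. Of the members, 3 (8.33%, beside 7.04% of all genes) stood at an unadjusted p under 0.05 with 24 libraries and 3 of the 34 other than Fos and Jun (8.82%, beside 5.57%) with 20, and DESeq2 at its default settings called 1 (beside 0.206% of all genes) with 24. The members' median log2 fold change was 0.18 beside -0.06 over all genes with 24 libraries, and 0.06 beside 0.02 with 20. Egr2 was the lowest member, at a log2 value of -2.54 ± 0.74 (SE, adjusted p = 0.504), with 0.400, 5.05 and 3.97 CPM in RMA early 1 to 3 and 18.9, 13.4, 22.1 and 19.4 CPM in control 1 to 4, so that every RMA early library lay below every control. In RMA early 1 it had 3 counts, at the floor. The gene did not pass the threshold. The highest was Hspa1a, whose counts are at or under the floor in 19 libraries and whose fold change is not read for that reason. In RMA-KR early against control, edgeR called 0 of 36 members with 24 libraries, where it called 0.0819% of all genes tested, and 0 of 36 with 20 libraries, where it called 0.0111%. DESeq2 at its default settings called 0 (beside 0.335% of all genes) with 24 libraries, and the members at an unadjusted p under 0.05 were 3 (8.33%, beside 8.71% of all genes) with 24 and 6 of the 34 other than Fos and Jun (17.6%, beside 7.36%) with 20. Their median log2 fold change came to 0.18 beside 0.00 over all genes with 24 libraries, and -0.10 beside 0.07 with 20. Among members Nr4a2 was highest at 1.07 ± 0.48 (SE, adjusted p = 0.554) and Ier3, with 0 counts in 4 libraries, lowest at -1.30. Neither passed the threshold.

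Of the comparisons with control, RMA-KR intermediate against control holds all 4 of the libraries, and the other 5 hold control 4. With RMA intermediate against control, edgeR called 0 of 36 members with 24 libraries, where it called 1.65% of all genes tested, and 2 of 36 with 20 libraries, where it called 1.17%. Members at an unadjusted p under 0.05 numbered 5 (13.9%, beside 15.9% of all genes) with 24 libraries and 16 of the 34 other than Fos and Jun (47.1%, beside 12.7%) with 20, and DESeq2 by default called 1 (beside 1.54% of all genes) with 24. Over the members, the median log2 fold change was -0.32 beside -0.29 over all genes with 24 libraries, and -0.63 beside -0.21 with 20. The 2 members called with 20 libraries, Btg1 and Btg2, fell. Egr3 was highest with 24 libraries at 2.15 and Maff lowest at -1.44, both at few counts and not called. Comparing RMA-KR intermediate with control, edgeR called 0 of 36 members with 24 libraries, where it called 0.0175% of all genes tested, and 0 of 36 with 20 libraries, where it called 0%. Of the members, 6 (16.7%, beside 5.91% of all genes) stood at an unadjusted p under 0.05 with 24 libraries and 5 of the 34 other than Fos and Jun (14.7%, beside 4.87%) with 20, and DESeq2 at its default settings called 0 (beside 0.0559% of all genes) with 24. The median over members was -0.38 beside 0.01 over all genes with 24 libraries, and 0.21 beside -0.14 with 20. The sign of the members' median thus turned with the 4 libraries. Egr3 was again highest with 24 libraries at 1.25, uncalled, and Hspa1a lowest with its fold change not read.

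Late comparisons hold the members called against control with 24 libraries. For RMA late against control, edgeR called 1 of 36 members with 24 libraries, where it called 1.79% of all genes tested, and 4 of 36 with 20 libraries, where it called 1.21%. The member called with 24 libraries was Klf2, which fell, and with 20 libraries Fosb and Klf2 fell. The other 2 counted with 20 are Fos and Jun, whose low values in control 4 are the reason that it was left out, so they are not read as calls. Leaving out control 1, RMA late 1 or RMA late 2 gave 0 called members, and leaving out control 4 gave 2. At an unadjusted p under 0.05 stood 5 members (13.9%, beside 14% of all genes) with 24 libraries. With 20 it was 13 of the 34 other than Fos and Jun (38.2%, beside 11.5%). As a median log2 fold change, the members gave -0.16 beside -0.18 over all genes with 24 libraries, and -0.45 beside -0.12 with 20. Egr3 was highest at 1.40 and Fosb lowest at -1.89 with 24 libraries, neither called there. In RMA-KR late against control, edgeR called 1 of 36 members with 24 libraries, where it called 0.983% of all genes tested, and 2 of 36 with 20 libraries, where it called 0.468%. Egr1 rose with 24 libraries, and with 20 Nr4a1 rose and Klf2 fell. Without control 3, control 4 or RMA-KR late 3 the count was 0, and without control 1 or RMA-KR late 2 it was 2. An unadjusted p under 0.05 was reached by 5 members (13.9%, beside 14.2% of all genes) with 24 libraries. With 20 it was reached by 9 of the 34 other than Fos and Jun (26.5%, beside 11.4%). The members' median stood at 0.24 beside -0.18 over all genes with 24 libraries, and 0.02 beside -0.08 with 20. Egr1 had the highest fold change of the members and Hspa1a, near the floor, the lowest.

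Comparing RMA-KR with RMA at each time asks how NK cells differ between the line without MHC class I and with Rae1-β and its parent line. Early, edgeR called 0 of 36 members with 24 libraries, where it called 0.304% of all genes tested, and 0 of 36 with 20 libraries, where it called 0.284%. DESeq2 at its default settings called 0 (beside 0.749% of all genes) with 24 libraries, and the members at an unadjusted p under 0.05 were 3 (8.33%, beside 12.3% of all genes) with 24 and 5 of the 34 other than Fos and Jun (14.7%, beside 11.7%) with 20. The members' median log2 fold change was 0.00 beside 0.03 over all genes with 24 libraries, and -0.02 beside 0.02 with 20. Egr3 was highest at 2.26 on 0.0927, 7.35 and 0 CPM in RMA-KR early 1 to 3 and 0, 0.722 and 0.793 CPM in RMA early, and without RMA-KR early 2 the value was -3.21. Hspa1a was lowest, with its fold change not read. At the intermediate time, edgeR called 0 of 36 members with 24 libraries, where it called 0.503% of all genes tested, and 7 of 36 with 20 libraries, where it called 0.412%. Members at an unadjusted p under 0.05 numbered 2 (5.56%, beside 14.2% of all genes) with 24 libraries and 16 of the 34 other than Fos and Jun (47.1%, beside 8.65%) with 20, and DESeq2 by default called 0 (beside 0.783% of all genes) with 24. Their median log2 fold change came to -0.09 beside 0.23 over all genes with 24 libraries, and 0.75 beside 0.00 with 20. With 20 libraries, which leave 2 in RMA-KR intermediate, 7 members rose: Junb at 1.24 ± 0.21 (SE, adjusted p = 0.00946), Ier2 at 1.24, Dusp1 at 1.02, Zfp36 at 1.58, Btg1 at 1.35, Btg2 at 1.56 and Ppp1r15a at 1.05. Their log2 fold changes with 24 libraries were 0.22, 0.28, -0.12, 0.52, 0.65, 0.67 and -0.04 in the same order. All 7 had an adjusted p under 0.05. For each of them RMA-KR intermediate 1 and 2 lay above all 3 RMA intermediate libraries, and RMA-KR intermediate 3 to 5 lay below them except for Btg1, where they overlapped. The 7 were picked by their call on these same libraries, and libraries 3 to 5 were set apart for low Fos and Jun. Their positions are thus a description that adds no support to the calls. The share of all genes with such positions is not given. These 7 results rest on leaving out 3 of 5 RMA-KR libraries, and the 2 that stay differ in day as well as tumor from RMA. With 24 libraries, leaving out RMA-KR intermediate 1 turned Junb to -0.26, Ier2 to -0.21 and Zfp36 to -0.48, and leaving out RMA-KR intermediate 2 turned Junb to -0.11. Leaving out any 1 of RMA-KR intermediate 3, 4 and 5 turned Dusp1 to between 0.16 and 0.17 and Ppp1r15a to between 0.21 and 0.24. Dusp5 was highest with 24 libraries at 0.84 and Klf4 lowest at -2.61, neither called. Leaving out 1 library gave Dusp5 values from 0.39 (without RMA-KR intermediate 1) to 1.06 (without RMA intermediate 1). Late, edgeR called 0 of 36 members with 24 libraries, where it called 0% of all genes tested, and 0 of 36 with 20 libraries, where it called 0%. Of the members, 3 (8.33%, beside 7.31% of all genes) stood at an unadjusted p under 0.05 with 24 libraries and 14 of the 34 other than Fos and Jun (41.2%, beside 6.65%) with 20, and DESeq2 at its default settings called 0 (beside 0.125% of all genes) with 24. Over the members, the median log2 fold change was 0.54 beside -0.06 over all genes with 24 libraries, and 0.58 beside -0.02 with 20. Both groups of this comparison lie among the 20 libraries. Most members were on the higher side in RMA-KR (31 of 36 with 24 libraries and 32 with 20) without passing the threshold. These counts were not compared with the share of all genes on that side, and the 36 include Fos and Jun. Fosb was highest at 1.38 ± 0.69 (SE, adjusted p = 0.655), and Hspa1a lowest with its fold change not read.

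Within each tumor, late was compared with early, and these groups hold none of the 4 libraries. For RMA late against early, edgeR called 2 of 36 members with 24 libraries, where it called 2.01% of all genes tested, and 5 of 36 with 20 libraries, where it called 1.6%. Fosb and Klf2 fell with 24 libraries, and with 20 Btg2 and Tnfaip3 fell as well, beside Fos, which is counted there but is 1 of the 2 genes on which libraries were left out. Without RMA early 1, RMA late 1 or RMA late 2 the count was 0, and without RMA early 2 it was 1. Members at an unadjusted p under 0.05 numbered 6 (16.7%, beside 17.2% of all genes) with 24 libraries. With 20 they numbered 16 of the 34 other than Fos and Jun (47.1%, beside 16%). The median over members was -0.54 beside -0.05 over all genes with 24 libraries, and -0.58 beside -0.11 with 20. Egr3 was highest at 2.91, uncalled, and Fosb lowest. In RMA-KR late against early, edgeR called 0 of 36 members with 24 libraries, where it called 0.322% of all genes tested, and 2 of 36 with 20 libraries, where it called 0.329%. DESeq2 at its default settings called 1 (beside 1.12% of all genes) with 24 libraries, and the members at an unadjusted p under 0.05 were 4 (11.1%, beside 15% of all genes) with 24 and 11 of the 34 other than Fos and Jun (32.4%, beside 14.2%) with 20. With 20 libraries Nr4a1 rose and Klf2 fell. As a median log2 fold change, the members gave -0.01 beside -0.10 over all genes with 24 libraries, and 0.00 beside -0.11 with 20. With 24 libraries Ier3 was highest at 2.04, uncalled and with 0 counts in 4 libraries, and Hspa1a lowest. On the difference between these 2 changes, edgeR called 0 of 36 members with 24 libraries, where it called 0% of all genes tested, and 0 of 36 with 20 libraries, where it called 0.00557%. Members at an unadjusted p under 0.05 numbered 3 (8.33%, beside 10.4% of all genes) with 24 libraries and 9 of the 34 other than Fos and Jun (26.5%, beside 10.1%) with 20, and DESeq2 by default called 0 (beside 0.376% of all genes) with 24. The members' median stood at 0.44 beside -0.12 over all genes with 24 libraries, and 0.49 beside -0.07 with 20. Here Fosb was highest at 2.12 ± 0.96 (SE, adjusted p = 0.447) and Egr3 lowest at -2.17, which without RMA-KR early 2 became 3.30. In these 2 fits no member's change over time was called as differing between the tumors, and without the filter on low counts edgeR called 1 (beside 0.254% of all genes).

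**Figure D4:**
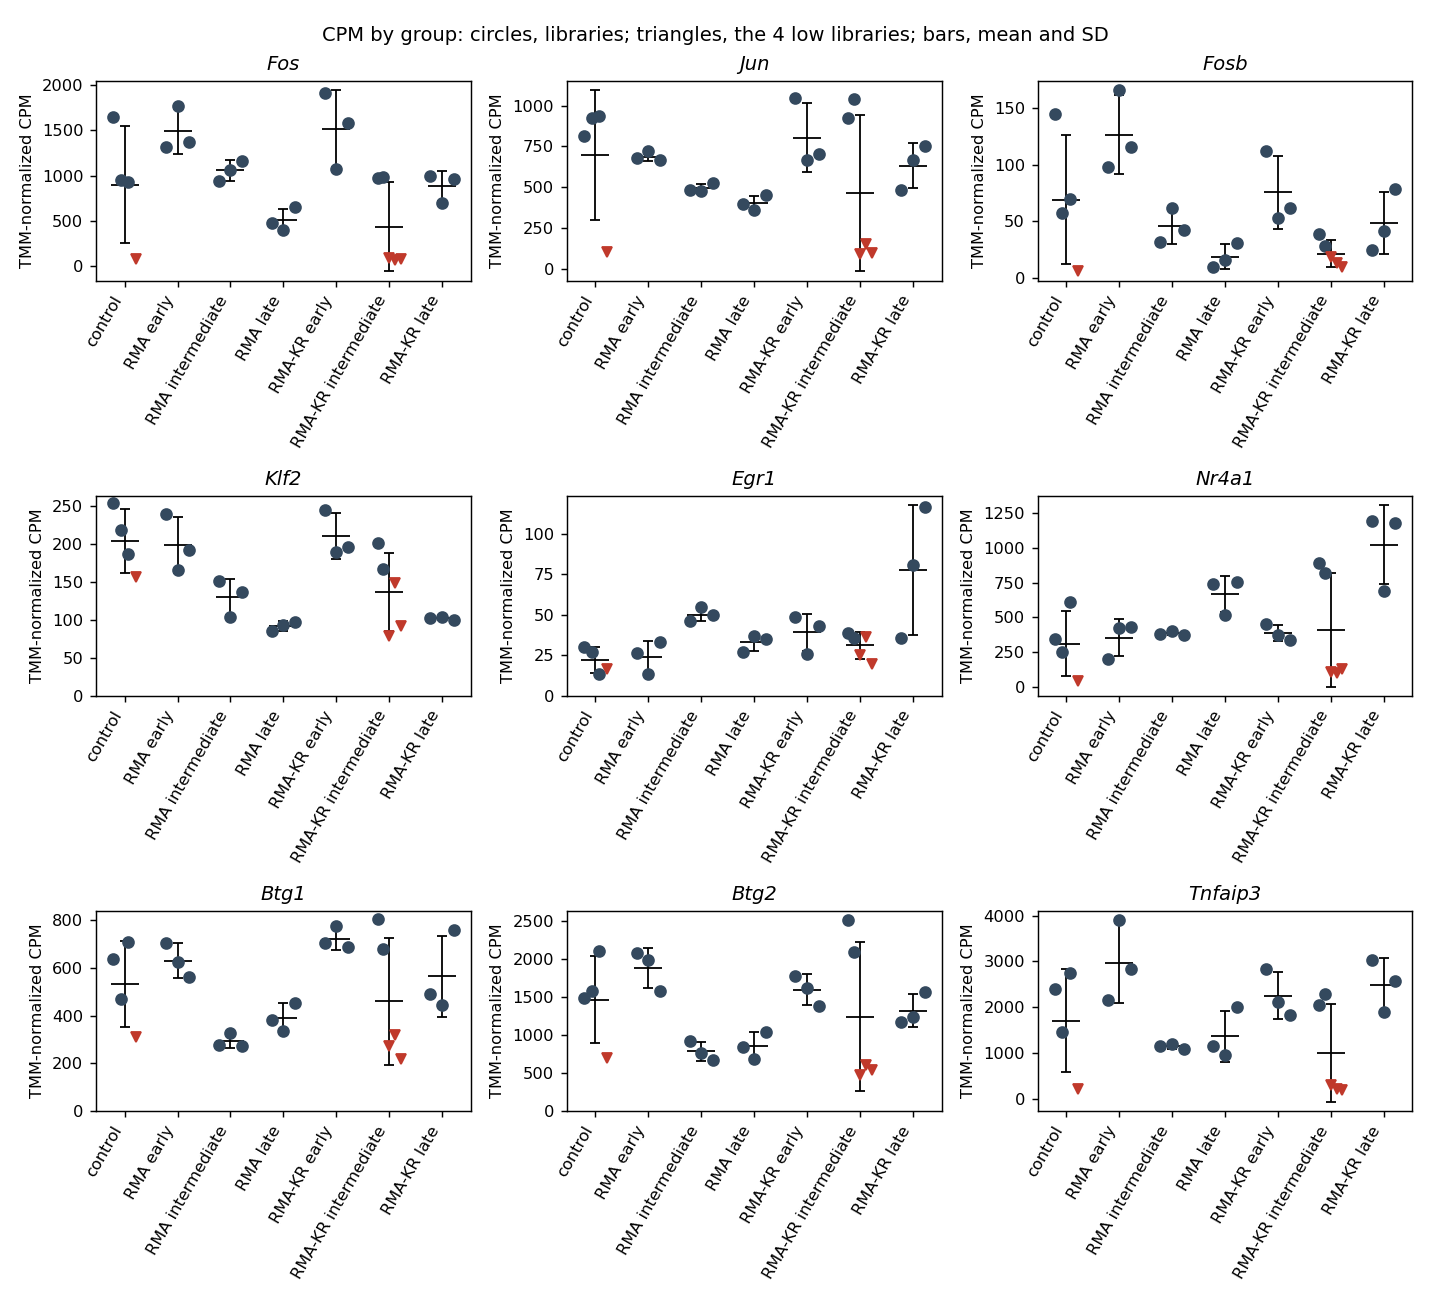
TMM-normalized CPM of the 9 members described library by library, with 1 point per library and the 4 libraries low in Fos and Jun marked. Klf2 is low in both late groups, and Egr1 is high in RMA-KR late 2 and 3.

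Of the AP-1 subunits, Fosb (ENSMUSG00000003545, chr7:19302696-19310051) encodes a Fos paralog. Its CPM was 144, 57.4, 69.5 and 5.80 in control 1 to 4, 98.3, 166 and 116 in RMA early 1 to 3 and 112, 52.8 and 61.9 in RMA-KR early 1 to 3. RMA libraries had 32.1, 62.0 and 42.5 CPM at the intermediate and 9.54, 15.6 and 31.0 CPM at the late time. RMA-KR libraries had 38.5, 28.2, 18.4, 13.3 and 9.91 CPM in intermediate 1 to 5 and 24.8, 41.9 and 79.0 CPM in late 1 to 3. All 3 RMA late libraries lay below all 3 RMA early libraries, and control 4 was the lowest of all. Fosb fell in RMA late against RMA early, at -2.76 ± 0.72 (SE, adjusted p = 0.0378), and with 20 libraries the value was -2.80 ± 0.51 (SE, adjusted p = 0.00787). The call was lost without RMA early 1 (adjusted p = 0.0781), RMA early 2 (0.0942), RMA late 1 (0.209) or RMA late 2 (0.189). Against control, RMA late Fosb was -1.89 ± 0.67 (SE, adjusted p = 0.163) with 24 libraries. With 20 libraries it was -2.27 ± 0.50 (SE, adjusted p = 0.0233), which passed. Without control 4 alone it was -2.30 (adjusted p = 0.0362). Leaving out 1 library gave values from -2.42 (without RMA late 3) to -1.26 (without control 1).

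Fos, whose values in every library are above, had a log2 fold change in RMA late against RMA early of -1.55 ± 0.84 (SE, adjusted p = 0.344) with 24 libraries, which did not pass. The 3 RMA late libraries lay below all 3 RMA early libraries. Against control, Fos in RMA late was -0.82 ± 0.78 (SE, adjusted p = 0.730) with 24 libraries. Jun was -0.79 ± 0.67 (SE, adjusted p = 0.676), and neither passed. Leaving out 1 library gave -1.24 (without control 4) to -0.37 (without control 1) for Fos. For Jun it gave -1.17 (without control 4) to -0.64 (without control 3). For Fos and Jun alike, the 3 RMA late libraries lay below control 1 to 3 and above control 4, the library set apart for low Fos and Jun. With 20 libraries the log2 fold changes were -1.58 for Fos in RMA late against RMA early, and -1.20 for Fos and -1.13 for Jun against control. These 3 values are descriptions with no test, since the libraries were left out on the values of these 2 genes, and leaving them out took the biological coefficient of variation of Fos from 0.671 to 0.230 and that of Jun from 0.581 to 0.181.

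Among zinc finger factors, Klf2 (ENSMUSG00000055148, chr8:72319033-72321656) encodes a factor that keeps lymphocytes quiescent and recirculating. Its CPM was 254, 219, 187 and 157 in control 1 to 4, 239, 166 and 192 in RMA early and 246, 189.8 and 197 in RMA-KR early. Intermediate Klf2 values were 151, 104 and 137 CPM with RMA and 201, 167, 78.1, 148 and 92.1 CPM in RMA-KR 1 to 5. Late values were 85.2, 93.9 and 97.1 CPM with RMA and 103, 104 and 99.8 CPM with RMA-KR. Late libraries of both tumors lay below all 4 controls and all early libraries, and among the 4 libraries control 4 and RMA-KR intermediate 4 did not stand out. Klf2 fell in RMA late against control at -1.15 ± 0.26 (SE, adjusted p = 0.0126), and at -1.25 ± 0.19 (SE, adjusted p = 0.00349) with 20 libraries. That call was lost without control 1 (adjusted p = 0.0527), RMA late 1 (0.105) or RMA late 2 (0.0935).

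Klf2 also fell in RMA late against RMA early, at -1.11 ± 0.27 (SE, adjusted p = 0.0265) with 24 libraries and -1.16 ± 0.19 (SE, adjusted p = 0.00450) with 20. This call was lost without RMA early 1 (adjusted p = 0.154), RMA late 1 (0.153), RMA late 2 (0.126) or RMA late 3 (0.0511). In RMA-KR late, Klf2 was -0.997 ± 0.25 (SE, adjusted p = 0.0532) against control with 24 libraries, short of both thresholds, and -1.07 ± 0.19 (SE, adjusted p = 0.0121) with 20, and with 24 libraries and a block for the replicate number it passed, at -1.03 (adjusted p = 0.0480). Against RMA-KR early it was -1.04 ± 0.27 (SE, adjusted p = 0.0890) with 24 libraries and -1.03 ± 0.19 (SE, adjusted p = 0.0251) with 20. The difference of the late-against-early change between the tumors was 0.07 ± 0.37 (SE, adjusted p = 1.00), so the test did not show Klf2 to change differently in RMA and RMA-KR.

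Egr1 (ENSMUSG00000038418) encodes an early factor downstream of MAP kinases and SRF. Its CPM was 30.1, 26.9, 13.4 and 16.5 in control 1 to 4, 26.0, 13.4 and 32.9 in RMA early and 48.3, 26.0 and 42.7 in RMA-KR early. Intermediate Egr1 values were 46.0, 54.4 and 49.6 CPM with RMA and 38.5, 35.7, 24.9, 36.4 and 19.8 CPM in RMA-KR 1 to 5. Late, RMA libraries had 26.9, 36.6 and 35.1 CPM and RMA-KR libraries 35.6, 80.7 and 116 CPM. RMA-KR late 2 and 3 were the highest of all 24 libraries, RMA-KR late 1 lay inside the range of the other tumor groups, and all 3 were above all 4 controls. Egr1 rose in RMA-KR late against control with 24 libraries, at 1.84 ± 0.38 (SE, adjusted p = 0.0150), and did not pass with 20, at 1.77 ± 0.43 (SE, adjusted p = 0.0656). Leaving out control 3 (adjusted p = 0.0712), control 4 (0.0708) or RMA-KR late 3 (0.103) also ended the call, as did a block for the replicate number (0.0600). RMA-KR late against RMA late gave 1.24 ± 0.41 (SE, adjusted p = 0.655), which did not pass, so a difference between the tumors was not shown.

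The orphan nuclear receptor Nr4a1 (ENSMUSG00000023034, chr15:101254269-101274795) is induced by antigen receptor and other signals in lymphocytes. Its CPM was 345, 250, 609 and 41.1 in control 1 to 4, 201, 426 and 434 in RMA early and 449, 375 and 340.2 in RMA-KR early. Intermediate values of Nr4a1 were 383, 398 and 369.8 CPM with RMA and 890.2, 822, 107, 100.1 and 129 CPM in RMA-KR 1 to 5. In late libraries Nr4a1 had 737, 519 and 753 CPM with RMA and 1193, 692 and 1179.6 CPM with RMA-KR. RMA-KR late lay above all controls and all early libraries, and RMA-KR late 2 overlapped RMA late. With 24 libraries Nr4a1 in RMA-KR late was 1.72 ± 0.67 (SE, adjusted p = 0.287) against control and did not pass, and with 20 it rose at 1.39 ± 0.30 (SE, adjusted p = 0.0416). Against RMA-KR early it was 1.40 ± 0.73 (SE, adjusted p = 0.354) with 24 libraries and 1.41 ± 0.30 (SE, adjusted p = 0.0466) with 20.

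Of the antiproliferative genes, Btg1 (ENSMUSG00000036478, chr10:96617006-96622809) had 639.7, 472, 712 and 311 CPM in control 1 to 4, 707, 624 and 563 CPM in RMA early and 705, 775 and 689.8 CPM in RMA-KR early. Intermediate values of Btg1 were 277, 328 and 273 CPM with RMA and 808, 681, 274, 318 and 216 CPM in RMA-KR 1 to 5. Late it had 382, 335 and 455 CPM with RMA and 489, 445 and 761 CPM with RMA-KR. RMA intermediate lay below control 1 to 3 and overlapped control 4, and RMA-KR intermediate 3 and 4 lay within the RMA intermediate range and 5 below it. With 24 libraries Btg1 in RMA intermediate against control was -0.87 ± 0.35 (SE, adjusted p = 0.246), and with 20 it fell at -1.04 ± 0.20 (SE, adjusted p = 0.0111). In RMA-KR against RMA at the intermediate time it was 0.65 ± 0.33 (SE, adjusted p = 0.356) with 24 libraries and 1.35 ± 0.22 (SE, adjusted p = 0.00937) with 20.

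Btg2 (ENSMUSG00000020423, chr1:134075170-134079120), a paralog of Btg1 induced by p53 and by growth factors, had 1485, 1586, 2104 and 699.6 CPM in control 1 to 4, 2078, 1994 and 1580.1 CPM in RMA early and 1786, 1628 and 1386 CPM in RMA-KR early. Intermediate values of Btg2 were 922, 762 and 667 CPM with RMA and 2521, 2094, 468, 601 and 535 CPM in RMA-KR 1 to 5. In late libraries Btg2 had 844, 680.1 and 1042 CPM with RMA and 1173, 1234 and 1566 CPM with RMA-KR. RMA intermediate and late libraries lay below every early library and below control 1 to 3, and overlapped control 4. Btg2 in RMA late against RMA early was -1.14 ± 0.47 (SE, adjusted p = 0.218) with 24 libraries and -1.18 ± 0.19 (SE, adjusted p = 0.00421) with 20. In RMA intermediate against control it was -0.91 ± 0.45 (SE, adjusted p = 0.319) with 24 libraries and -1.12 ± 0.19 (SE, adjusted p = 0.00528) with 20. In RMA-KR against RMA intermediate the values were 0.67 ± 0.43 (SE, adjusted p = 0.467) and 1.56 ± 0.21 (SE, adjusted p = 0.00398).

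Of the NF-kB feedback genes, Tnfaip3 (ENSMUSG00000019850, chr10:19000910-19015657) had 2394, 1459, 2737 and 218 CPM in control 1 to 4, 2160, 3897 and 2831 CPM in RMA early and 2826, 2113 and 1818 CPM in RMA-KR early. Intermediate values of Tnfaip3 were 1149.7, 1191 and 1084 CPM with RMA and 2053, 2294, 293, 202 and 182 CPM in RMA-KR 1 to 5. In late libraries Tnfaip3 had 1147, 952 and 2001 CPM with RMA and 3023, 1885 and 2568 CPM with RMA-KR. The RMA late libraries lay below the RMA early ones, RMA late 3 narrowly so, and the 4 libraries were below all others. Tnfaip3 in RMA late against RMA early was -1.12 ± 0.77 (SE, adjusted p = 0.472) with 24 libraries and -1.15 ± 0.28 (SE, adjusted p = 0.0368) with 20.

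Other genes of the same pathways were taken from 5 lists, and counts of their called genes are over the 12 comparisons. Of all genes tested, 2.74% were called up and 1.74% down at least once with 24 libraries, 2.95% were called with 20, and DESeq2 at its default settings called 4.94% of 44723 genes. At an unadjusted p under 0.05 stood 5.91% to 17.2% of all genes a comparison with 24 libraries and 4.87% to 16% with 20. For the lists, such ranges are with 24 libraries unless stated. The lists are small, and their counts are a description. Of 18 further AP-1, ATF and CREB family genes 15 were tested, and edgeR with 24 libraries called 0 up and 3 down in at least 1 comparison. With 20 libraries it called 3, DESeq2 at its default settings called 4, and 1 to 7 genes a comparison had an unadjusted p under 0.05. Atf4, the effector of the integrated stress response, fell in RMA-KR early against control at -1.38 ± 0.24 (SE, adjusted p = 0.0265) and against RMA early at -1.41 ± 0.25 (SE, adjusted p = 0.0187). The first of these calls ended with 20 libraries, with the replicate block (adjusted p = 0.0833) and without control 1, control 2, control 3, RMA-KR early 1, RMA-KR early 2 or RMA-KR early 3 (adjusted p from 0.0728 to 0.194), and the second without RMA early 2 or RMA-KR early 2 (adjusted p from 0.0907 to 0.0920). In RMA late against RMA early, Mafk, which encodes a small Maf protein, fell at -1.29 ± 0.28 (SE, adjusted p = 0.0134), and the ATF2 relative Atf7 at -1.48 ± 0.33 (SE, adjusted p = 0.0150). The Mafk call ended without RMA early 1, RMA late 1 or RMA late 2 (adjusted p from 0.0592 to 0.102) and the Atf7 call without RMA early 1, RMA late 1 or RMA late 2 (adjusted p from 0.0687 to 0.143). With 20 libraries Mafk also fell in RMA late against control, at -1.03 ± 0.21 (SE, adjusted p = 0.0150).

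Of 13 genes for SRF, its partners, EGR cofactors and MAP kinases 12 were tested, and edgeR called 0 in any comparison with 24 or with 20 libraries. DESeq2 by default called 0 as well. With edgeR 0 to 2 genes a comparison stood at an unadjusted p under 0.05 with 24 libraries, and 0 to 3 with 20. Of 16 other NF-kB pathway genes, all tested, 0 were called up and 1 down, while DESeq2 called 3 and 0 to 6 a comparison had an unadjusted p under 0.05. That gene, Nfkb2, encodes the p100 precursor of the noncanonical pathway and fell in RMA-KR early against RMA early at -1.54 ± 0.34 (SE, adjusted p = 0.0495), which ended with the replicate block (adjusted p = 0.0808) and without RMA early 2, RMA-KR early 1, RMA-KR early 2 or RMA-KR early 3 (adjusted p from 0.0511 to 0.268). Of 17 heat shock chaperones 16 were tested, with 0 called up and 1 down, 3 called by DESeq2, and 0 to 5 a comparison at an unadjusted p under 0.05. Dnaja1, a partner of HSP70, fell in RMA late against RMA early at -1.30 ± 0.32 (SE, adjusted p = 0.0267), a call that ended without RMA early 1, RMA early 2, RMA late 1, RMA late 2 or RMA late 3 (adjusted p from 0.0766 to 0.106). With 20 libraries Dnajb4 fell as well in that comparison, at -1.33 ± 0.31 (SE, adjusted p = 0.0321).

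Of 26 other early response genes, all tested, 1 was called up and 2 down with 24 libraries, and 4 were called with 20. DESeq2 at its default settings called 6. With edgeR, 0 to 6 genes a comparison had an unadjusted p under 0.05 with 24 libraries. With 20 libraries it was 0 to 12, the highest in RMA late against RMA early. Myc, which drives growth and metabolism in activated lymphocytes, rose in RMA intermediate against control at 1.20 ± 0.22 (SE, adjusted p = 0.00415) and in RMA-KR late against control at 1.13 ± 0.22 (SE, adjusted p = 0.0102). Both calls of Myc held with 20 libraries, with the block and with each library of the compared groups left out. Pnrc1, a nuclear receptor coactivator, fell in RMA intermediate against control at -1.29 ± 0.32 (SE, adjusted p = 0.0275) and in RMA late against control at -1.45 ± 0.32 (SE, adjusted p = 0.0117). Its first call ended without control 1, RMA intermediate 1, RMA intermediate 2 or RMA intermediate 3 (adjusted p from 0.0936 to 0.186) and its second without control 1, RMA late 1 or RMA late 2 (adjusted p from 0.0630 to 0.121). Zfp36l2, a relative of the mRNA decay factor Zfp36, fell in RMA intermediate against control at -1.22 ± 0.30 (SE, adjusted p = 0.0259), which ended without control 1, control 3, RMA intermediate 1, RMA intermediate 2 or RMA intermediate 3 (adjusted p from 0.0572 to 0.180). With 20 libraries Rgs2, a regulator of G protein signalling, also fell there, at -1.04 ± 0.19 (SE, adjusted p = 0.00823). The calls of Mafk, Atf7, Nfkb2, Dnaja1, Myc, Pnrc1 and Zfp36l2 made with 24 libraries were made again with 20, as was that of Atf4 against RMA early. The alternatives for the genes of these 5 lists, and the names Dnajb4 and Rgs2, were chosen after seeing the data.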

How the data were processed

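Raw counts of 24 libraries of sorted spleen NK cells were analysed, as deposited by the authors, who trimmed reads with cutadapt 1.10, also used Bowtie2 2.2.8, aligned reads to mm10 with STAR 2.5.3a and counted per gene with HTSeq 0.6.1p1. The 48 other per-library columns and the 29 columns of the authors' comparisons (fold changes, p-values) were not used here. Total counts per library ran from 5138651 to 14863500 (median 10489204). A count of 0 allows up to 3 counts, and this floor covers counting error only.

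Members are the genes whose name equals a listed name. The members and lists were chosen with earlier results of these data known. Counts were fitted with edgeR 4.0.16 (limma 3.58.1, R 4.3.3): TMM, filterByExpr on the 7 groups, 1 mean per group, robust quasi-likelihood tests and Benjamini-Hochberg adjustment over all genes tested. Called means adjusted p under 0.05 and an absolute log2 fold change above 1. The fit was repeated on 20 libraries without control 4 and RMA-KR intermediate 3 to 5. CPM are TMM-normalized, and log2 CPM use a prior count of 2. The procedure was run on simulated counts with known changes. These had 1 fixed spread, smaller than that of the median gene here, and no libraries set apart. That run therefore does not test the procedure under the conditions of these data.

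Alternatives were DESeq2 1.42.0 size factors in edgeR, DESeq2 itself (default settings, or betaPrior=TRUE) and leaving the low-count filter out. Others were keeping genes counted at least 10 times in each library, a block for the replicate number and CPM on library totals. Replicate number 4 belongs only to control 4 and RMA-KR intermediate 4, and number 5 only to RMA-KR intermediate 5. The block therefore takes up part of the values of these low libraries, and is not separate from leaving them out. Each library of the compared groups was also left out in turn.

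Genes named with the value of every library are Fos, Jun and the members called in either fit, up to 8 by smallest adjusted p with 24 libraries. Further named are the 6 members with the largest and the 6 with the smallest difference in the 4 libraries, the highest and lowest fold change of each comparison, and genes of the other lists called with 24 libraries, up to 5 a list. Any other name was chosen after its values were seen.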

Additional observations from a re-analysis of the deposited data

Results flagged for a closer look

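In groups of 4 or 5 libraries, the gap between the highest or lowest library and its nearest neighbour was divided by the range of the group, for 72 group values of the 36 tested members in control and RMA-KR intermediate. A ratio above Dixon's critical value marks a library far from the others, which chance gives in about 1 of 20 groups, and 3 of the 72 passed. Jun in control had control 4 as its lowest library, at 105 CPM with a ratio of 0.851; this library was set apart for low Jun, so the entry repeats that choice. Dusp5 in RMA-KR intermediate had library 1 as its highest, at 472 CPM with a ratio of 0.895. Hspa1a in RMA-KR intermediate had library 3 as its highest, at 0.115 CPM, which is 1 count, under the floor, where the other 4 libraries were at 0; the ratio is then 1 whatever the count, so this entry says nothing of library 3.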

How the results depend on the processing

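Counts of called members did not move with DESeq2 size factors in edgeR or with a block for the replicate number, where in RMA-KR late against control Klf2 was called in place of Egr1. Beside each count below stands, in parentheses, the share of all genes called in that comparison and setting. The shares are over 44723 genes with DESeq2 and 45237 in edgeR with no filter on low counts, so they differ in base from the filtered fits. Without the 4 libraries low in Fos and Jun, counts moved in 6 comparisons. They were 2 for RMA intermediate against control (1.17%), 4 for RMA late against control (1.21%) and 2 for RMA-KR late against control (0.468%). They were 7 for RMA-KR against RMA intermediate (0.412%), 5 for RMA late against early (1.6%) and 2 for RMA-KR late against early (0.329%). The count of 4 includes Fos and Jun and the count of 5 includes Fos, which are not read as calls. DESeq2 at default settings gave 1 for RMA early against control (0.206%), 1 for RMA intermediate against control (1.54%), 3 for RMA late against control (1.4%), 2 for RMA-KR late against control (1.09%), 3 for RMA late against RMA early (2.15%) and 1 for RMA-KR late against RMA-KR early (1.12%). With betaPrior=TRUE it gave 1 for RMA intermediate against control (1.16%), 2 for RMA late against control (1.18%), 2 for RMA-KR late against control (0.803%), 3 for RMA late against RMA early (1.73%) and 1 for RMA-KR late against RMA-KR early (0.724%). With no filter on low counts, edgeR gave 1 for RMA early against control (0.195%), 2 for RMA-KR intermediate against control (0.124%), 3 for RMA late against control (1.04%), 3 for RMA-KR late against control (0.871%), 1 for RMA-KR intermediate against RMA intermediate (0.601%), 1 for RMA-KR late against RMA late (0.0619%), 6 for RMA late against RMA early (1.16%), 2 for RMA-KR late against RMA-KR early (0.745%) and 1 for the difference of these changes (0.254%). With at least 10 counts in every library (7800 genes) the counts were 2 for RMA late against control (4.83%), 2 for RMA-KR late against control (2.59%), 3 for RMA late against RMA early (7.14%) and 1 for RMA-KR late against RMA-KR early (1.59%). Libraries were left out 1 at a time, only from the groups compared. This gave 0 to 2 called members for RMA late against control, RMA-KR late against control and RMA late against early. It gave 0 to 0 for the other 9 comparisons. The cause of these differences was not tested.

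The log2 fold change in RMA-KR against RMA intermediate changed sign for Dusp1, from -0.12 to 1.02 without the 4 libraries and 0.48 with the block, and for Ppp1r15a, from -0.04 to 1.05 and 0.57. These settings are not independent, since replicate numbers 4 and 5 occur only in control 4 and RMA-KR intermediate 4 and 5. Leaving out 1 library gave ranges across 0 in this comparison: -0.63 to 0.17 for Dusp1, -0.62 to 0.24 for Ppp1r15a, -0.26 to 0.48 for Junb, -0.21 to 0.52 for Ier2 and -0.48 to 0.82 for Zfp36. For Egr3 the range was -3.21 to 2.85 in RMA-KR against RMA early and -2.77 to 3.30 in the difference of changes. For Hspa1a no fold change is read, since its counts were at or under the floor in 19 libraries; its sign turned with the library left out, at -1.96 to 0.39 in RMA-KR late against control, -3.47 to 0.36 in RMA-KR against RMA early, -2.29 to 0.46 in RMA-KR against RMA late and -2.86 to 0.15 in RMA-KR late against early. The difference of Egr2 within RMA-KR intermediate was -0.13 with TMM and 0.004 with CPM on library totals.

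With the block, Egr1 in RMA-KR late against control was 1.78 (adjusted p = 0.0600; over its alternatives adjusted p ran from 0.000287 to 0.103). Residuals of libraries with the same number correlated at a median of -0.007 over 64 pairs, beside 0.003 over 181 pairs with different numbers, so no pairing by number was seen. Depth limits Hspa1a, Hspa1b, Egr2, Egr3, Ier3, Klf4 and Maff, whose counts were at or under 3 in at least 1 library.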
